A study of Mus musculus with 14 samples.

Results

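The genotype by diet time interaction asks, gene by gene, whether the difference between islets that lack Toll-like receptors 2 and 4 and wild-type islets was the same after a short and after a long high-fat diet. It uses all 14 of the 14 arrays. For each gene it is the difference between double knockout (DKO) and wild-type (WT) islets at 7 months minus the same difference at 5 weeks, on the log2 scale. The same number is the change over time in DKO islets minus the change over time in WT islets. Of 18820 genes tested, 17 (0.0903%) passed the threshold of limma adjusted p under 0.05.

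Toll-like receptors 2 and 4 are innate immune receptors that recognise bacterial lipopeptides and lipopolysaccharide and signal to NF-kappaB. Pancreatic islets are small endocrine organs in which insulin-secreting beta cells lie beside glucagon-secreting alpha cells, somatostatin-secreting delta cells and pancreatic polypeptide cells. In obesity, beta cells meet a rising demand for insulin by secreting more and by increasing in mass. The title of the series concerns the part of these receptors in that expansion.

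The WT mice were C57BL/6, and the DKO mice, deficient in both Tlr2 and Tlr4, were on a C57BL/6 background. Every mouse received a diet with 60% fat from 6 weeks of age and was kept free of specific pathogens, and no group on a control diet is part of the design. The 4 groups were WT after 5 weeks of diet (4 arrays), DKO after 5 weeks (2 arrays), WT after 7 months (4 arrays) and DKO after 7 months (4 arrays), and the labels describe each sample as taken from 1 mouse. Mice at 7 months were also older, so diet time and age cannot be told apart. The receptors were missing from every cell of a DKO mouse and not from islet cells alone, and the sources used here do not name the substrain of either genotype.

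Each value is a log2 signal of an array probe set, so a difference of 1 is a doubling. Array medians lay between 3.89 and 3.98. The tissue label was checked on islet hormone genes: the Ins2 and Gcg group means lay among the brightest signals, and Sst was at percentile 100.0 of the genes. Tlr2 was lower in every DKO array than in every WT array at both times, with differences of -1.66 ± 0.12 (SE) at 5 weeks and -1.06 ± 0.10 at 7 months. Their change over time did not pass the interaction test (0.60 ± 0.15, limma adjusted p = 0.171), while Tlr4 differed by 0.35 ± 0.20 and 0.31 ± 0.16, did not pass at either time and had an interaction of -0.05 ± 0.25. The sources used here do not say whether these probe sets lie in the deleted parts, so Tlr4 does not check the labels. The smallest group, DKO at 5 weeks, has 2 arrays, and the median SE of an interaction was 0.18.

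Among the 17 genes, 12 (0.0638% of the genes tested) had a lower and 5 (0.0266%) a higher DKO to WT difference at 7 months than at 5 weeks. The lower side held the hormone genes Sst and Pyy, the delta cell gene Rbp4, the fatty acid receptor Ffar4, the fuel regulators Ppargc1a and Pdk4, and the imprinted gene Peg10. It also held Ust, Clip4, Cdh8, Adgrv1 and Sorl1, and the higher side held Clmp, Anxa1, Glt1d1, Steap4 and Galr1. Interaction values ran from -2.52 to 3.24 and adjusted p-values from 0.0172 to 0.0341, all from limma, and 1909 of 18820 genes (10.1%) had an unadjusted p under 0.05. In Adgrv1, Anxa1, Clmp, Ffar4, Pdk4, Peg10, Ppargc1a and Ust at least 1 group mean lay below every array median, so the sizes given for these 8 genes are not exact.

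**Figure D1:**
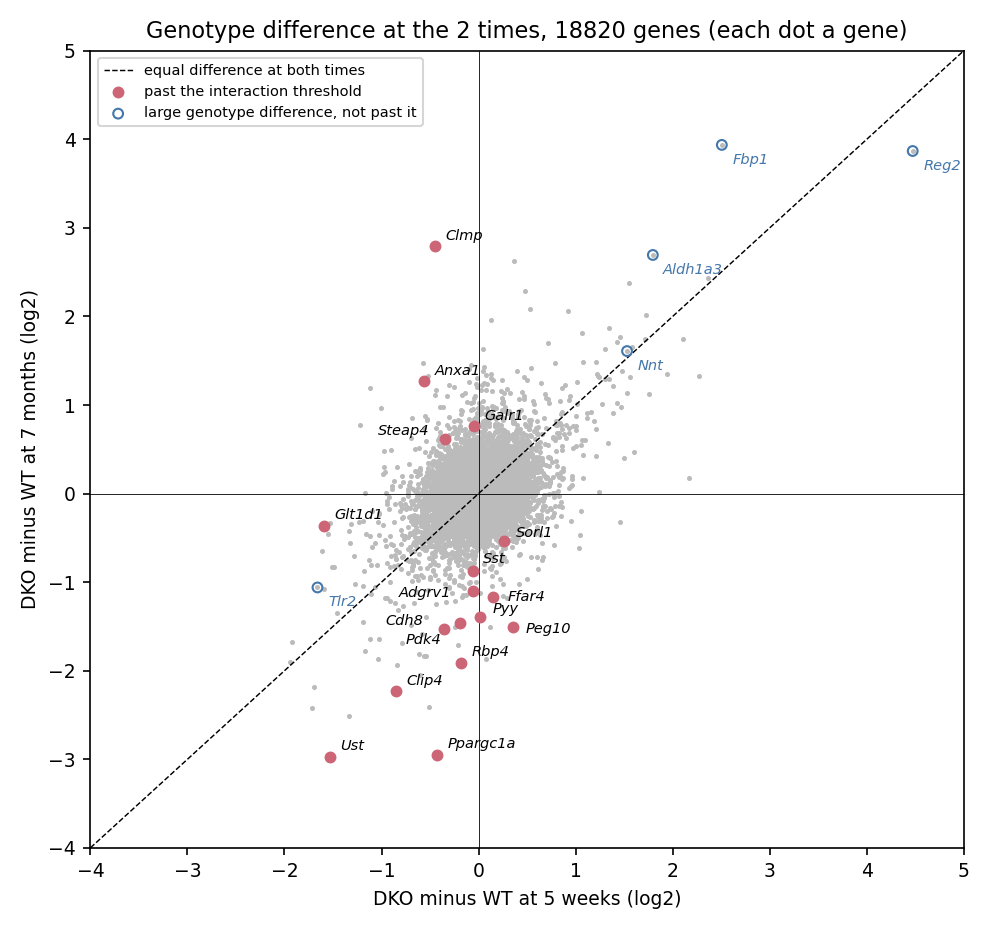
Difference between DKO and WT islets (log2) at 5 weeks on the horizontal axis and at 7 months on the vertical axis for 18820 genes, with 1 dot per gene. Filled red dots are the 17 genes past the interaction threshold, open blue circles are 5 genes with a large genotype difference that did not pass it, and the dashed line marks equal differences at both times; Clmp lies farthest above the line among the filled dots and Ppargc1a farthest below.

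The number of genes past the threshold depended on single arrays. It was 2 without replicate 1 of DKO at 5 weeks, of which Ffar4 was the member of the 17, and 185 without replicate 2 of DKO at 7 months, with all 17 among them. It was 8 without replicate 3 of WT at 5 weeks, 10 without replicate 2 of WT at 7 months, 27 without replicate 1 of DKO at 7 months and 36 without replicate 2 of DKO at 5 weeks. No gene passed when all 35556 probe sets were tested together (lowest limma adjusted p = 0.0766, with 3121 probe sets at an unadjusted p under 0.05). The direction of all 17 genes was the same in every alternative in which they were measured. Centring each array on its median gave 24 genes, 14 higher and 10 lower, and repeating the quantile normalization gave 21, 9 higher and 12 lower, so the split between the directions depends on the scaling.

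The genotype comparisons at each time show where the 17 genes stood. At 7 months 887 genes (4.71%) passed, among them 16 of the 17. At 5 weeks 187 genes (0.994%) passed, among them Clip4, Glt1d1 and Ust. These comparisons share their arrays with the interaction, so their counts describe the 17 genes and do not add evidence for them. Of the 788 genes that passed at 7 months and not at 5 weeks, 14 passed the interaction test, and of the 88 that passed at 5 weeks and not at 7 months, 1 did. For the remaining genes of these sets a change of the genotype difference over time was not shown. No gene passed at both times with opposite signs.

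The genes of hormone-secreting islet cells other than beta cells came first. Islet delta cells release somatostatin, which restrains both insulin and glucagon secretion, and Sst encodes it. At 5 weeks Sst read 12.86, 12.90, 12.85 and 12.91 in WT and 12.78 and 12.85 in DKO islets. At 7 months it read 12.52, 12.74, 12.60 and 12.63 in WT and 11.85, 11.89, 11.58 and 11.65 in DKO islets. The genotypes overlapped at 5 weeks, and at 7 months every DKO array lay below every other array of the series. The genotype difference was -0.06 ± 0.10 (SE) at 5 weeks and -0.88 ± 0.08 at 7 months, and the interaction was -0.82 ± 0.13 (1.76-fold, limma adjusted p = 0.026). Sst was at percentile 100.0 of the genes. Whether so bright a signal shows differences in full was not tested, so its sizes may not be exact. Its call was lost with arrays centred on their medians, with all probe sets tested and with the replicate number as a block. The Sst call was also lost with the arrays of either label number alone and in 9 of the 14 fits that left out 1 array.

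Rbp4 encodes the plasma carrier of retinol and in mouse islets is known as a gene of delta cells. It read 9.46, 9.55, 9.32 and 9.18 in WT and 9.14 and 9.25 in DKO islets at 5 weeks. The values at 7 months were 8.004, 8.67, 8.35 and 8.47 in WT and 6.62, 6.70, 6.21 and 6.33 in DKO islets. The groups overlapped at 5 weeks and were more than 1 log2 unit apart at 7 months. Rbp4 fell over time in WT islets (-1.002 ± 0.142) and in DKO islets (-2.73 ± 0.17), and the difference between these falls was -1.73 ± 0.23 (3.31-fold, limma adjusted p = 0.0172).

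Pyy encodes peptide YY, a gut and islet peptide of the pancreatic polypeptide family. It was bright and nearly equal in all 6 arrays at 5 weeks, from 12.04 to 12.17 in WT and at 12.12 and 12.10 in DKO islets. At 7 months it read 11.71, 11.99, 11.95 and 11.85 in WT and 10.48, 10.87, 10.31 and 10.25 in DKO islets. The genotype difference went from 0.01 ± 0.14 to -1.40 ± 0.12, and the interaction was -1.41 ± 0.19 (2.65-fold, limma adjusted p = 0.0172). Pyy was at percentile 99.8 of the genes. As for Sst, whether so bright a signal shows differences in full was not tested, so these sizes may not be exact.

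Ffar4 encodes a receptor for long-chain fatty acids, also known as GPR120, that delta cells of mouse islets are known to carry. It read 5.00, 4.86, 4.62 and 4.43 in WT and 4.61 and 5.15 in DKO islets at 5 weeks. At 7 months the WT arrays read 4.13, 4.18, 4.07 and 4.23 and the DKO arrays 2.96, 2.92, 3.15 and 2.90. WT islets thus stood above every array median and DKO islets below every array median at 7 months. The interaction was -1.32 ± 0.21 (limma adjusted p = 0.0197), and its size is not exact because the DKO arrays at 7 months were dim.

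A list of 15 genes of alpha, delta, pancreatic polypeptide and epsilon cells had 13 measured members. Of these, 3 passed the interaction test, all lower (Rbp4, Pyy and Sst), against 0.0638% of all genes in that direction. The median interaction of the 13 was -0.82, against 0.00 over all genes, and 10 of the 13 values were below 0, against 9274 of 18820 over all genes. In all, 9 of the 13 had an unadjusted p under 0.05, against 10.1% of all genes. The other hormone genes did not pass: Gcg, which encodes glucagon, was -0.60 ± 0.14 (limma adjusted p = 0.145), Ppy, which encodes pancreatic polypeptide, was -0.96, Npy -1.19 and the ghrelin gene Ghrl -0.85. The alpha cell transcription factor gene Irx2 was -0.88, while Ttr (0.68), Lepr (0.32) and Hhex (0.26) lay above 0. The mean signal of the 13 genes was 8.36 to 8.44 in WT and 8.23 to 8.28 in DKO arrays at 5 weeks, and 7.67 to 7.98 in WT and 6.96 to 7.14 in DKO arrays at 7 months, with no overlap at either time. In RNA of whole islets, fewer cells of a type and less RNA of a gene in each cell cannot be told apart.

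Beta cell genes were read in the same way. None of 21 measured genes of beta cell identity and maturity passed the interaction test in limma, 1 had an unadjusted p under 0.05 (10.1% of all genes did), and their median was -0.05. Ins2, which encodes insulin, had an interaction of 0.02 ± 0.11 (95% interval -0.21 to 0.26, limma adjusted p = 0.973). Its signal was at percentile 99.9 of the genes and read 11.912 to 11.914 in the 4 DKO arrays at 7 months. Whether so bright a signal can still show a change was not tested, so the interval may not bound insulin RNA. The value of smallest p in the list was that of Ucn3, a peptide gene of mature beta cells, at -0.44 ± 0.17 (limma adjusted p = 0.377). Ucn3 was 1 of the 185 genes that passed without replicate 2 of DKO at 7 months (limma adjusted p = 0.0324). The mean signal of the list was 9.75, 10.01, 9.65 and 9.63 in DKO at 7 months and lay between 9.80 and 9.96 in all other arrays. Replicate 2 of DKO at 7 months thus lay above all other groups, and replicates 1, 3 and 4 lay below them. Over the alternatives the median of the beta cell list ran from -0.09 to 0.02 and that of the other hormone cells from -0.88 to -0.59. The difference between the lists was not tested.

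The stretches of DNA just before the transcription starts of Sst, Rbp4 and Sorl1 are shown because they are the upstream stretches of the 17 genes that held one of 4 short motifs searched, and the Sst site is a textbook cyclic AMP response element. Each sequence is the 250 bases before a RefSeq start in GRCm38.p6, read on the strand of the gene, which is the minus strand in all 3 cases. Capitals mark the motif: TGACGTCA (CRE) in Sst at chr16:23890845-23891094, starting 48 bases before the start; TGAGTCA, the other strand of TGACTCA (AP-1), in Rbp4 at chr19:38124812-38125061, 142 bases before; and CACGTG (E-box) in Sorl1 at chr9:42124298-42124547, 19 bases before.
Sst: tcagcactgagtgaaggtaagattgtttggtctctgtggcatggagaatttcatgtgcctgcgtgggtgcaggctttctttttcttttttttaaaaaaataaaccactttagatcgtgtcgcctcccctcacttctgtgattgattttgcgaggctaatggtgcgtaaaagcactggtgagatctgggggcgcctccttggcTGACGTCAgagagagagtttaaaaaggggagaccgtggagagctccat
Rbp4: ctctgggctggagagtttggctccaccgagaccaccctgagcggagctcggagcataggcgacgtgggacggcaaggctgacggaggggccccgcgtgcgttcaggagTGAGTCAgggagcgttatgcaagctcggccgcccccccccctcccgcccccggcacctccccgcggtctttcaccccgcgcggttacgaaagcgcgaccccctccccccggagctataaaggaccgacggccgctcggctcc
Sorl1: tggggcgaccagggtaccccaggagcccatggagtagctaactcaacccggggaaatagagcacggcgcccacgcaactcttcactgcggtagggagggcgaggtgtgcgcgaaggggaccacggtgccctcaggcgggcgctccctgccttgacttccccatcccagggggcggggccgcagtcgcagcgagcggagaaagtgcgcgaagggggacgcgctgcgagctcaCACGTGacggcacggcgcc
Promoter windows from 250 bases before to 50 after a start were at hand for 13 of the 17 genes and for 14749 of the genes tested, and both strands were searched. The E-box CACGTG was found in 1 of the 13 against 9.57% of all genes, and TGACTCA in 1 of the 13 against 5.27%. TGACGTCA was found in 1 of the 13 against 2.77%, and the D-box TTATGTAA in 0 of the 13 against 0.949%. None of these motifs overlaps another in the sequences shown. A match describes letters in a window and does not show that a factor binds there.

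A pair of genes that set how cells choose between glucose and fat as fuel passed the test, both lower. Ppargc1a encodes PGC-1alpha, a coactivator of mitochondrial biogenesis and fatty acid oxidation. It read 6.32, 6.00, 6.30 and 6.30 in WT and 5.97 and 5.63 in DKO islets at 5 weeks. At 7 months Ppargc1a read 6.79, 6.84, 6.69 and 6.48 in WT and 3.47, 4.66, 2.99 and 3.88 in DKO islets. DKO arrays were below WT arrays at both times, with a difference of -0.43 ± 0.31 at 5 weeks, which did not pass, and of -2.95 ± 0.25 at 7 months (7.72-fold, limma adjusted p = 6.87e-06). Its interaction, -2.52 ± 0.40 (5.72-fold, limma adjusted p = 0.0197), was the lowest of the 17, although the 4 DKO arrays at 7 months spread over more than 1 log2 unit. The call was lost in 5 of the 14 fits that left out 1 array and when probe sets of a gene were averaged. It was also lost with all probe sets tested, with the replicate number as a block and with the arrays of label number 07 alone.

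Pdk4 encodes a kinase that switches off pyruvate dehydrogenase and so spares glucose when fat is burnt. It read 6.90, 6.84, 6.74 and 6.99 in WT and 6.77 and 6.59 in DKO islets at 5 weeks. At 7 months Pdk4 read 5.11, 5.58, 4.94 and 5.33 in WT and 3.80, 3.89, 3.79 and 3.65 in DKO islets. Pdk4 fell with time in both genotypes, with changes of -1.63 ± 0.12 in WT and -2.90 ± 0.15 in DKO islets, and the interaction was -1.27 ± 0.19 (limma adjusted p = 0.0177). The DKO mean at 7 months lay below every array median, so the size is not exact.

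The list of fatty acid oxidation and PPAR genes held few other large values. Of 16 measured, 2 passed (Ppargc1a and Pdk4), both lower, against 0.0638% of all genes in that direction. In this list 3 of the 16 had an unadjusted p under 0.05, against 10.1% of all genes, and the median was -0.06. Cpt1a, the enzyme that admits fatty acids to mitochondria, was at 0.06, Hadha at -0.04 and the receptor gene Ppara at -0.08. Slc25a20, the mitochondrial carnitine carrier, was the highest of the list at 0.51 ± 0.19 (limma adjusted p = 0.367).

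Peg10, a paternally expressed imprinted gene derived from a retrotransposon, showed the largest change over time in DKO islets among the 17. It read 6.59, 6.70, 6.79 and 6.69 in WT and 6.94 and 7.15 in DKO islets at 5 weeks. At 7 months Peg10 read 4.83, 5.62, 4.67 and 5.08 in WT and 3.44, 3.52, 3.86 and 3.37 in DKO islets. DKO arrays were thus above WT arrays at 5 weeks, a difference of 0.36 ± 0.20 that did not pass, and below them at 7 months, a difference of -1.50 ± 0.17 (limma adjusted p = 9.66e-05). Its falls over time were -1.64 ± 0.17 in WT and -3.50 ± 0.20 in DKO islets, and the interaction was -1.86 ± 0.26 (3.63-fold, limma adjusted p = 0.0177). Of 16 measured imprinted growth genes Peg10 was the 1 that passed, against 0.0638% of all genes in that direction, and 6 had an unadjusted p under 0.05, against 10.1% of all genes. The median of the list was -0.26, and 13 of the 16 values were below 0, against 9274 of 18820 over all genes. Dlk1, a Notch-related membrane protein gene, was at -1.27 ± 0.29 (limma adjusted p = 0.137) and the growth factor gene Igf2 at -1.16 ± 0.40 (limma adjusted p = 0.317).

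The other genes of the lower side, none of them in a gene list, were Ust, Clip4, Sorl1, Cdh8 and Adgrv1. Ust encodes a sulfotransferase that modifies uronic acid in chondroitin and dermatan sulfate. It read 5.54, 5.40, 5.29 and 5.44 in WT and 3.90 and 3.86 in DKO islets at 5 weeks. At 7 months Ust read 6.14, 5.63, 6.05 and 5.97 in WT and 3.19, 2.92, 2.59 and 3.20 in DKO islets. It is 1 of 2 genes of the 17 that passed between genotypes at both times, namely -1.54 ± 0.17 at the earlier time (limma adjusted p = 0.000279) and -2.97 ± 0.14 at the later (limma adjusted p = 1.4e-08). The interaction was -1.43 ± 0.21 (limma adjusted p = 0.0177).

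Clip4, which encodes a linker protein of the microtubule-binding CAP-Gly family, was the other. It read 4.81, 5.36, 5.16 and 5.06 in WT and 4.26 and 4.24 in DKO islets at 5 weeks. At 7 months Clip4 read 6.44, 6.12, 5.84 and 6.34 in WT and 3.73, 3.81, 4.07 and 4.22 in DKO islets. The larger change over time was in WT islets, where Clip4 rose by 1.09 ± 0.15 (limma adjusted p = 0.00104). The time difference in DKO islets was -0.29 ± 0.18 and did not pass. Its interaction of -1.38 ± 0.23 had the highest adjusted p of the 17 (limma, 0.0341) and was called in 4 of the 14 fits that left out 1 array.

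Sorl1, a sorting receptor of the VPS10 family, also changed over time in WT islets. It read 7.01, 7.01, 7.09 and 7.15 in WT and 7.39 and 7.26 in DKO islets at 5 weeks. At 7 months Sorl1 read 7.80, 7.60, 7.55 and 7.81 in WT and 7.23, 7.08, 7.09 and 7.21 in DKO islets. Both DKO arrays lay above the WT arrays at 5 weeks and all DKO arrays below them at 7 months, and the genotype difference passed at 7 months (-0.54 ± 0.08, limma adjusted p = 0.00189) and not at 5 weeks (0.26 ± 0.10). The interaction of -0.79 ± 0.13 (limma adjusted p = 0.0324) was the smallest in size of the 17. Its call was lost with arrays centred, with all probe sets tested, with the replicate number as a block, with the label number as a factor, with the arrays of either label number alone, and in 8 of the 14 fits that left out 1 array.

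Cdh8, a cadherin of the kind that joins neurons, ranged from 8.41 to 8.60 in WT and was 8.10 and 8.16 in DKO islets at 5 weeks. At 7 months it ranged from 8.44 to 8.62 in WT and from 6.74 to 7.41 in DKO islets. The time difference was 0.06 ± 0.12 in WT islets, which did not pass, and -1.11 ± 0.14 in DKO islets (limma adjusted p = 0.000345), which gave an interaction of -1.17 ± 0.18 (limma adjusted p = 0.0197). Its call was lost in 6 of the 14 fits that left out 1 array. Adgrv1, a very large adhesion receptor known from hearing and vision, read 3.94 to 4.28 in WT and 4.15 and 3.97 in DKO islets at 5 weeks, then 4.14 to 4.28 in WT and 3.04 to 3.26 in DKO islets. Its interaction was -1.05 ± 0.14 (limma adjusted p = 0.0172). Adgrv1 thus lay between 3.94 and 4.28 in 10 arrays and below every array median in the 4 arrays of DKO at 7 months.

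**Figure D2:**
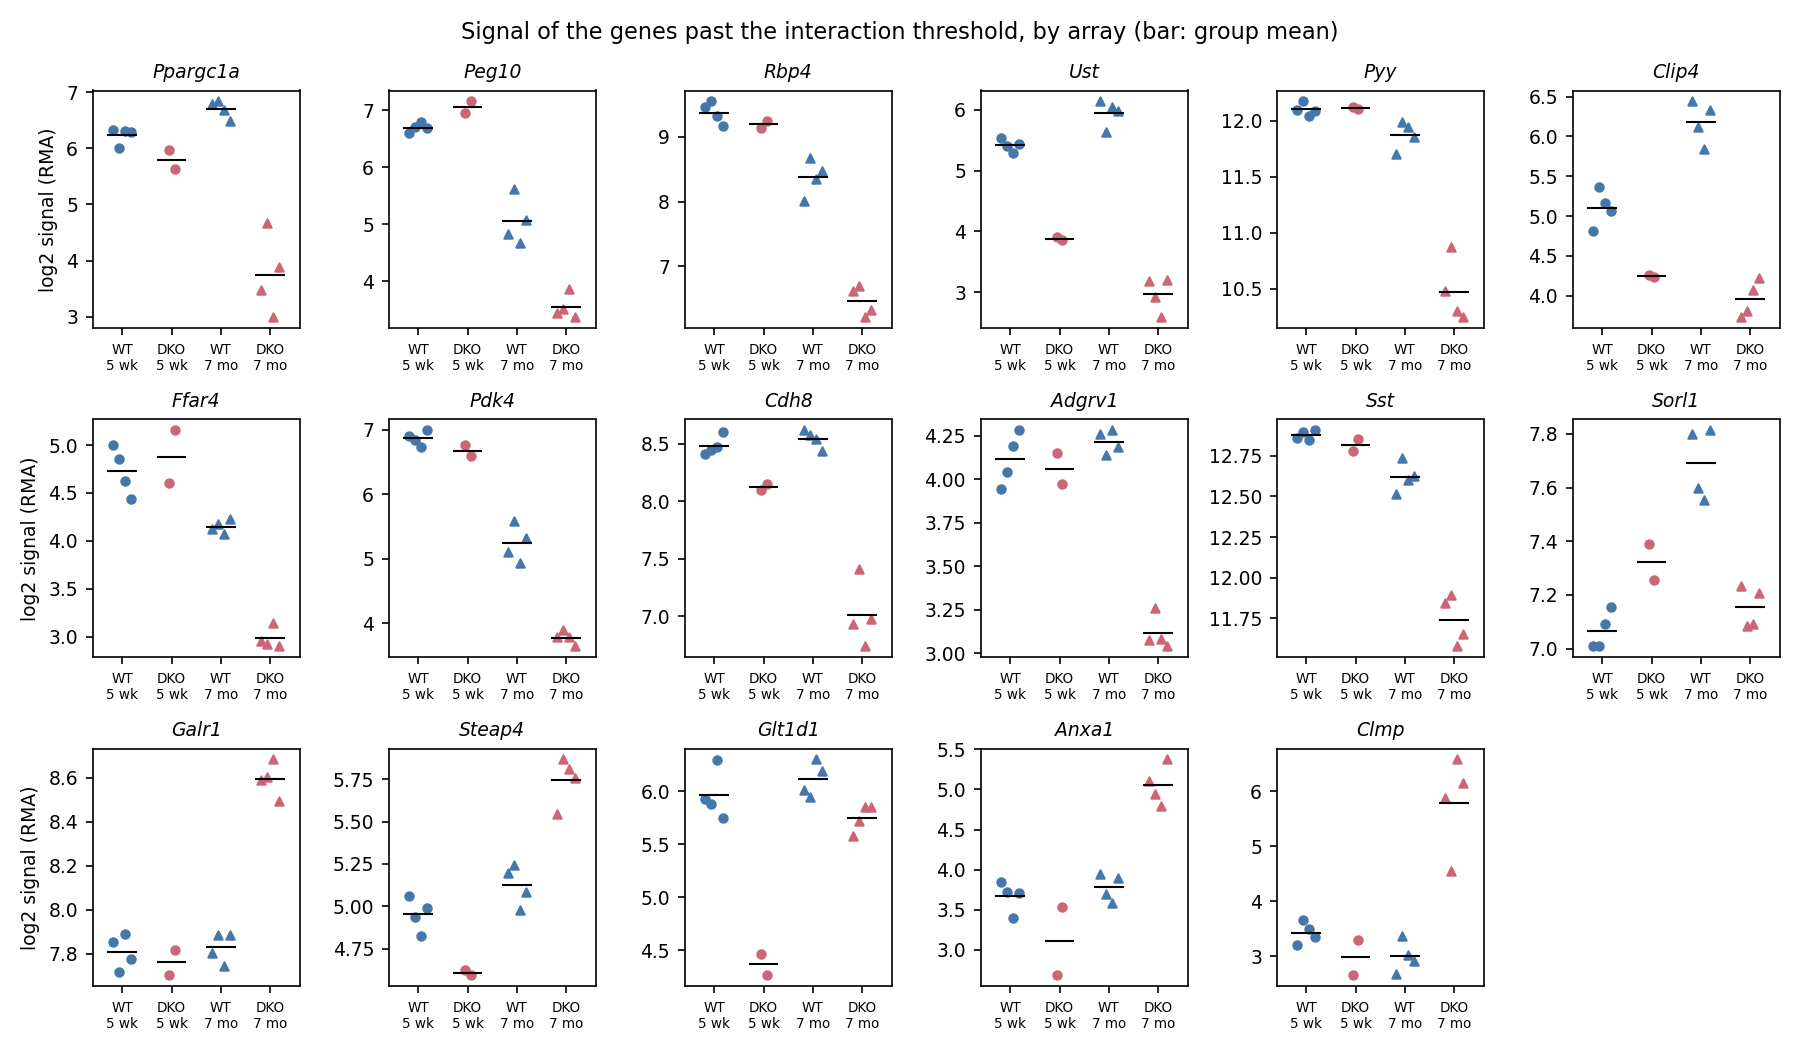
Log2 signal (vertical axes, each panel with its own range) of the 17 genes past the interaction threshold in the 4 groups, with 1 point per array, circles at 5 weeks, triangles at 7 months, WT in blue and DKO in red. Horizontal bars are group means. The 4 DKO arrays at 7 months stand apart from all other arrays in 15 panels, the exceptions being Glt1d1 and Sorl1. The 17 genes were chosen by a test on these same arrays, so this separation describes them and adds no evidence. Its share over all genes was not counted.

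On the higher side, Clmp, which encodes an adhesion molecule of cell junctions, had the largest interaction of the 17. It read 3.21, 3.65, 3.50 and 3.35 in WT and 2.65 and 3.30 in DKO islets at 5 weeks. At 7 months Clmp read 2.68, 3.37, 3.02 and 2.92 in WT and 5.87, 4.56, 6.58 and 6.14 in DKO islets. All 10 other arrays lay below every array median, and the 4 DKO arrays at 7 months lay above it and spread over about 2 log2 units. The genotype difference was -0.45 ± 0.39 at 5 weeks and 2.79 ± 0.32 at 7 months (6.92-fold, limma adjusted p = 0.000124). The interaction was 3.24 ± 0.50 (limma adjusted p = 0.0197), with a size that is not exact because 3 of the 4 groups were dim. Its call was lost in 4 of the 14 fits that left out 1 array.

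Anxa1 encodes annexin A1, a calcium-dependent phospholipid-binding protein induced by glucocorticoids. It read 3.84, 3.72, 3.40 and 3.71 in WT and 2.68 and 3.53 in DKO islets at 5 weeks. At 7 months Anxa1 read 3.95, 3.70, 3.59 and 3.90 in WT and 5.10, 4.95, 4.79 and 5.38 in DKO islets. The time difference in WT islets was 0.12 ± 0.17 and did not pass, and DKO islets rose by 1.95 ± 0.21 (limma adjusted p = 8.95e-05). The interaction was 1.83 ± 0.27 (limma adjusted p = 0.0177), with a size that is not exact because 3 of the 4 group means lay below every array median.

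Galr1 encodes a receptor for galanin, a neuropeptide that inhibits insulin secretion. It ranged from 7.72 to 7.89 in WT and was 7.70 and 7.82 in DKO islets at 5 weeks, and at 7 months from 7.75 to 7.89 in WT and from 8.496 to 8.684 in DKO islets. The 10 other arrays overlapped and the DKO arrays at 7 months lay above them all. The interaction was 0.81 ± 0.12 (1.75-fold, limma adjusted p = 0.0177), and Gal, which encodes galanin, was at -0.12 and did not pass. Steap4, a metalloreductase of iron and copper, was 4.82 to 5.06 in WT and 4.62 and 4.59 in DKO islets at 5 weeks, and 4.98 to 5.25 in WT and 5.54 to 5.87 in DKO islets at 7 months. DKO islets were below WT islets at 5 weeks, where the difference of -0.35 ± 0.11 did not pass, and above them at 7 months, by 0.62 ± 0.09 (limma adjusted p = 0.00123). The Steap4 interaction was 0.97 ± 0.14 (limma adjusted p = 0.0177).

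Glt1d1, a gene with a glycosyltransferase domain, was the 1 gene whose genotype difference was larger at 5 weeks. It read 5.92, 5.88, 6.29 and 5.75 in WT and 4.47 and 4.27 in DKO islets at 5 weeks. At 7 months Glt1d1 read 6.01, 5.94, 6.30 and 6.19 in WT and 5.58, 5.72, 5.85 and 5.85 in DKO islets. The genotype difference of -1.59 ± 0.15 at 5 weeks passed (limma adjusted p = 8.72e-05), and that of -0.36 ± 0.12 at 7 months did not. The interaction was 1.23 ± 0.19 (limma adjusted p = 0.0197). Its call was lost without either array of DKO at 5 weeks, and also without replicate 2 of WT or replicate 3 of DKO at 7 months.

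Read as changes over time, 15 of the 17 genes changed more in DKO than in WT islets. The share of all genes that did so was not counted, and the DKO change rests on 2 arrays at 5 weeks. In DKO islets 1424 genes (7.57%) passed between 5 weeks and 7 months, among them 15 of the 17. In WT islets 446 genes (2.37%) passed, among them Clip4, Ffar4, Pdk4, Peg10, Rbp4 and Sorl1. For Ffar4, Pdk4, Peg10 and Rbp4 both genotypes fell and DKO islets fell more. For Clip4 and Sorl1 WT islets rose and the DKO change did not pass. The other 11 genes passed in DKO islets and not in WT islets. As with the genotype comparisons, these counts come from the same arrays as the interaction.

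**Figure D3:**
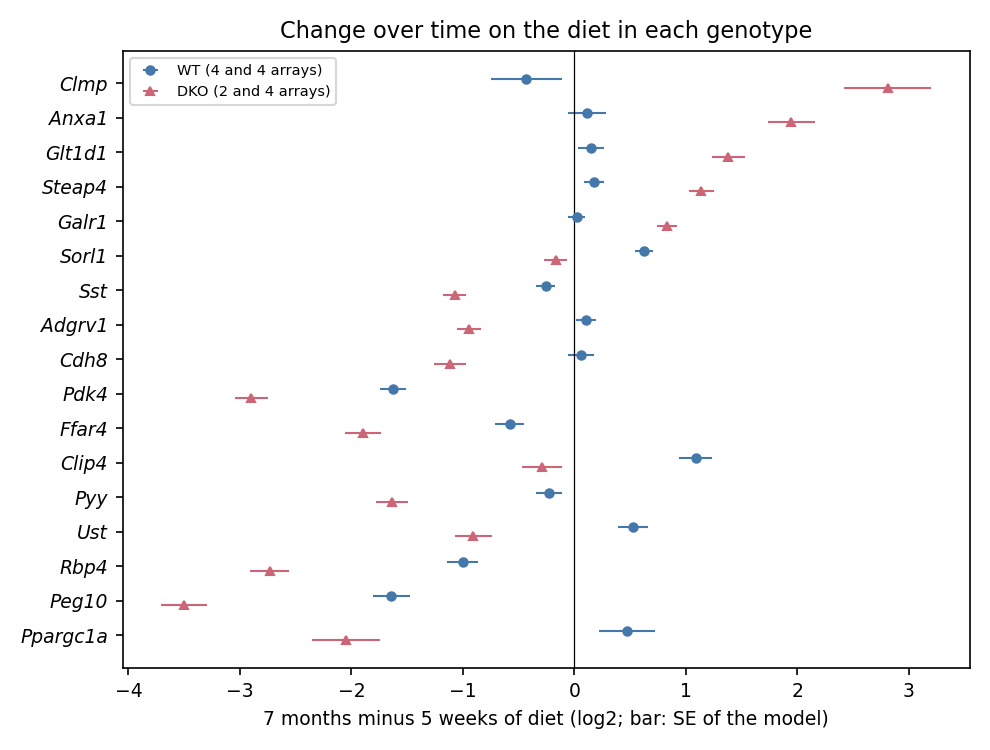
Change from 5 weeks to 7 months of diet (log2, horizontal axis) of the 17 genes in WT islets (blue circles, 4 and 4 arrays) and DKO islets (red triangles, 2 and 4 arrays), with bars of 1 SE of the model. The horizontal distance between the symbols of a gene is its interaction. Of the 17 genes, 15 changed more in DKO islets, and Clip4 and Sorl1 changed more in WT islets. The genes were chosen by a test on the difference between these changes, and the share over all genes was not counted.

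Several of the largest genotype differences of the series did not pass the interaction test. Nnt, a mitochondrial transhydrogenase that supplies NADPH, was higher in DKO islets by 1.53 ± 0.11 at 5 weeks and 1.61 ± 0.09 at 7 months, and its interaction of 0.08 ± 0.14 had a 95% interval of -0.23 to 0.39 (limma adjusted p = 0.906). Nnt is known to be partly deleted in the C57BL/6J substrain, and the part of a substrain difference in these results was not tested. Reg2, a secreted regenerating protein gene, was higher by 4.47 ± 0.48 and 3.87 ± 0.39, with an interaction of -0.61 ± 0.62 and an interval of -1.93 to 0.72, which leaves room for changes of more than 2-fold. The WT means of Reg2, 3.07 at 5 weeks and 2.73 at 7 months, lay below every array median, so these sizes are not exact. Aldh1a3, a retinaldehyde dehydrogenase that marks dedifferentiated beta cells, was at 0.90 ± 0.43, with an interval of -0.02 to 1.81 (limma adjusted p = 0.505).

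Fbp1, a gluconeogenic bisphosphatase, lay just outside the threshold. It read 4.53, 4.50, 4.82 and 4.17 in WT and 7.04 and 6.98 in DKO islets at 5 weeks, and 3.99, 3.36, 3.28 and 3.80 in WT and 7.75, 7.58, 7.50 and 7.34 in DKO islets at 7 months. Its genotype difference was 2.51 ± 0.20 at 5 weeks and 3.94 ± 0.16 at 7 months, and its interaction was 1.43 ± 0.26 (95% interval 0.88 to 1.98, limma adjusted p = 0.053). The WT mean of Fbp1 at 7 months, 3.61, lay below every array median, so the sizes that use it are not exact. Dio1, a thyroid hormone deiodinase gene (1.10 ± 0.20), Vnn1, a pantetheinase gene (1.15 ± 0.21), and Reln, which encodes the matrix protein reelin (-1.65 ± 0.29), had the same adjusted p of 0.053 in limma. Just inside the threshold stood Clip4 at 0.0341, Sorl1 at 0.0324 and Sst at 0.026. Of 152 genes with an interaction of at least 2-fold, 13 passed and 139 did not. Among the latter was Cck, which encodes cholecystokinin (2.27 ± 0.86, limma adjusted p = 0.371), with a DKO mean at 7 months of 5.40 ± 1.65 (SD, n = 4) against 2.77 ± 0.19 (n = 4) in WT islets.

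Of the 31 gene lists examined, 3 had a member past the threshold, and 11 of the 17 genes were in no list. Of the other 28 lists, 24 had a median interaction within 0.25 of 0. The exceptions were the lists of stellate, pericyte and fibroblast genes (0.85), immediate early genes (0.32), dedifferentiation genes (0.28) and interferon response genes (-0.27).

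The list of stellate, pericyte and fibroblast genes had none of 20 members past the interaction threshold in limma, although 13 had an unadjusted p under 0.05, against 10.1% of all genes. Of the 20 values 19 were above 0, against 9546 of 18820 over all genes. Acta2, smooth muscle actin, was at 1.20 ± 0.22 (limma adjusted p = 0.0592), the proteoglycan gene Dcn at 1.83 ± 0.47 (limma adjusted p = 0.171), Pdgfra, a receptor of fibroblasts, at 0.84 ± 0.21 and the collagen gene Col1a1 at 0.89 ± 0.29. The mean signal of the list was 5.00 to 5.29 in WT and 4.92 to 5.14 in DKO arrays at 5 weeks, which overlapped, and 4.78 to 4.98 in WT and 5.24 to 5.93 in DKO arrays at 7 months, which did not. The level of these genes thus moved with the groups in which the 17 genes differ, and its part in their interactions was not tested. Over the alternatives the median of the list ran from 0.66 to 0.91, with 0 to 2 members called.

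Other cell types that islet preparations hold were compared in the same way. The macrophage list had a median of 0.10 with none of 25 past the threshold in limma and 5 at an unadjusted p under 0.05 (10.1% of all genes), and the highest value, that of Lyz2, was 1.02 ± 0.33 (limma adjusted p = 0.282). The mean signal of T, NK, B and plasma cell genes was 2.54 to 2.80 in 13 arrays and 4.01 in replicate 4 of DKO at 7 months. Acinar genes, from the enzyme-secreting tissue around islets, had a median of -0.10 with none of 22 called and 0 at an unadjusted p under 0.05 in limma (10.1% of all genes), and mean signals of 5.58 to 7.67 in WT and 7.89 to 8.36 in DKO arrays at 5 weeks and of 4.82 to 7.77 in WT and 7.04 to 7.61 in DKO arrays at 7 months. With an acinar score in the model 18 genes passed, including all 17. The mesothelial gene Msln was at -1.90 ± 0.39 (limma adjusted p = 0.0741). Its DKO mean at 7 months, 2.87, lay below every array median, so the size is not exact.

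**Figure D4:**
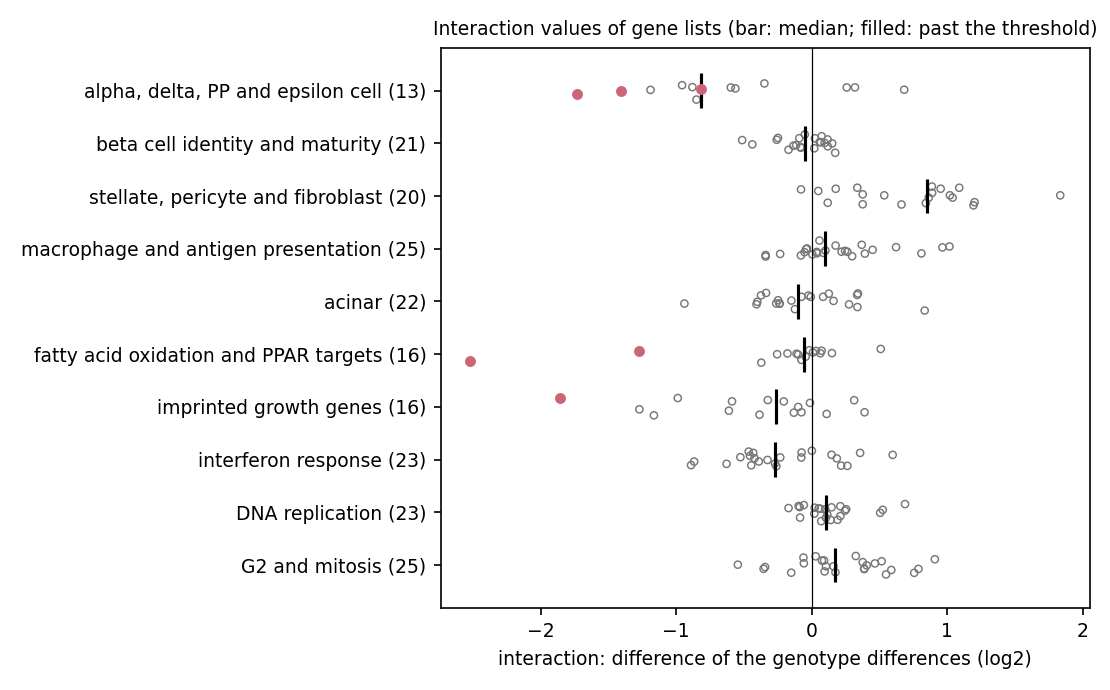
Interaction (log2, horizontal axis) of the measured members of 10 of the 31 gene lists, with 1 circle per gene, the number of measured genes in brackets and a black bar at the median. Filled red circles passed the threshold; the list of alpha, delta, pancreatic polypeptide and epsilon cell genes has its median at -0.82 and the stellate, pericyte and fibroblast list at 0.85, the latter with no filled circle.

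Genes of cell division, the process by which beta cells expand, showed no interaction that passed. None of 25 genes of G2 and mitosis and none of 23 genes of DNA replication was called in limma, with 1 and 0 at an unadjusted p under 0.05 (10.1% of all genes) and medians of 0.17 and 0.11. Mki67, a marker of dividing cells, read 3.52 and 6.22 in the arrays of DKO at 5 weeks, and its interaction was 0.76 ± 0.86 (95% interval -1.09 to 2.60, limma adjusted p = 0.828). The mean of the mitosis list was likewise 3.12 and 4.33 in these 2 arrays, against 3.64 to 3.77 in WT at 5 weeks. Over the alternatives the median of the mitosis list ran from -0.77 to 0.90 and that of the DNA replication list from -0.21 to 0.37. The sign of neither median is settled. Ccnd2, a cyclin gene of beta cell replication, was at -0.36 ± 0.16 (limma adjusted p = 0.472).

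Genes of Toll-like receptors, the deleted ones included, and of their signalling gave no call either. None of 27 Toll-like receptor and adaptor genes and none of 28 NF-kappaB target, cytokine and chemokine genes passed in limma, with 4 and 0 at an unadjusted p under 0.05 (10.1% of all genes) and medians of 0.02 and 0.05. None of 23 interferon response genes passed in limma, 6 had an unadjusted p under 0.05 (again beside 10.1% of all genes), and the median was -0.27. Ifih1, a sensor of double-stranded RNA, was at -0.63 ± 0.14 (limma adjusted p = 0.125), and Irak3, an inhibitor of Toll-like receptor signalling, at -0.56 ± 0.13 (limma adjusted p = 0.145). Cd36, a member of the receptor list, was at 1.96 ± 0.47 (limma adjusted p = 0.15). It was 1 of the 185 genes called without replicate 2 of DKO at 7 months.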

How the data were processed

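RNA of pancreatic islets was measured on 14 whole-transcript arrays, from 100 ng of total RNA per sample, per the labels' protocols. The table deposited by the authors holds log2 values, processed by RMA per the submitters' processing notes, with a version not given in the sources used here. They were used without further normalization. Of 35556 probe sets, 21218 carried 1 gene symbol, 1881 several and 12457 none. The brightest probe set was kept for 1386 genes with several, and symbols were updated by Entrez identifier for 18790 of 18820 genes. The platform table and the RefSeq tables gave names and promoters. Ins1 was not analysed here.

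limma 3.58.1 in R 4.3.3 (lmFit, then eBayes with its default prior) estimated 1 mean for each group from all arrays together. P-values were adjusted by Benjamini-Hochberg over all genes and judged at 0.05 with no minimum fold. They measure the spread between these samples. In simulated arrays of this design with 18820 genes, the interaction test recovered 30% of 1.5-fold, 66% of 2-fold, 96% of 3-fold and 100% of 4-fold changes, and 3.95% of its calls were false. The simulated noise was independent between genes, with 1 spread per gene in all groups. With 50 changed genes of each size the simulation made 152 calls, against 17 here, so its cutoff on unadjusted p was looser. These shares therefore do not carry over to the series as they stand. The number of arrays limits the precision.

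Genes are named by a rule: up to 12 called genes per direction, up to 4 called members of each of 31 lists or its member of smallest p, and Tlr2, Tlr4, Ins2, Gcg, Sst, Mki67, Ccnd2, Reg2, Fbp1, Aldh1a3 and Nnt. Unnamed gene models and large repeat families were passed over. Other list members, the genes just outside the threshold and Cck were named after their values were seen. The genes and lists were chosen with earlier results of these data known. Alternatives were a trended robust prior, leaving out dim genes, averaging probe sets, repeating quantile normalization, centring arrays, testing all probe sets, the replicate number, the number 05 or 07 of the description labels, or an acinar score in the model, each label number alone, array weights, and leaving out each array. The letters in those labels run with the groups, so what they stand for and the group cannot be told apart. Figures were drawn with Python 3.11.15 and matplotlib 3.10.9.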

Additional observations from a re-analysis of the deposited data

Results flagged for a closer look

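The genotype difference changed between 5 weeks and 7 months for 17 genes by the limma test of the interaction itself. The values were -2.52 for Ppargc1a, -1.86 for Peg10, -1.73 for Rbp4, -1.43 for Ust, -1.41 for Pyy, -1.38 for Clip4, -1.32 for Ffar4, -1.27 for Pdk4, -1.17 for Cdh8, -1.05 for Adgrv1, -0.82 for Sst and -0.79 for Sorl1. They were 0.81 for Galr1, 0.97 for Steap4, 1.23 for Glt1d1, 1.83 for Anxa1 and 3.24 for Clmp, all on the log2 scale.

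Single arrays lay far from the other 3 arrays of their group by Dixon's criterion in 7 of 162 groups of named genes examined, where chance gives about 1 in 20. Ppargc1a read 6.00 in replicate 2 of WT at 5 weeks, against 6.30 to 6.32 in the others. Rrm2, a subunit of ribonucleotide reductase, read 4.52 in replicate 1 of WT at 7 months (others 4.75 to 4.78) and 4.39 in replicate 2 of DKO at 7 months (others 5.41 to 5.55). Irak3 read 5.92 in replicate 1 of WT at 7 months (others 5.76 to 5.78). Cd3d, a T cell receptor subunit, read 3.31 in replicate 3 of WT at 5 weeks (others 2.63 to 2.75) and 3.32 in replicate 4 of DKO at 7 months (others 2.57 to 2.64). Vwf, an endothelial gene, read 4.12 in replicate 2 of DKO at 7 months (others 4.66 to 4.74).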

How the results depend on the processing

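The count of 17 genes rose to 46 with a trended robust prior and 28 with array weights, both including all 17, and to 35 of 9410 genes without dim genes, including the 12 of the 17 that remained to be tested. It was 10 with the replicate number as a block (replicate block; 7 of the 17), 11 with arrays of label number 05 alone (2 of the 17), and 0 with arrays of label number 07 alone (lowest limma adjusted p = 0.0827; 786 genes at an unadjusted p under 0.05) or with all probe sets tested. Leaving out 1 array gave 2 to 185 genes. The count was 16 to 24 under the remaining alternatives, which were averaging probe sets, quantile normalization, centring, label number and acinar score; with the label number in the model the call of Sorl1 was lost. Same-numbered arrays did not deviate together over all genes (median correlation -0.009 over 18 pairs, 1 above 0.1). Such a correlation cannot show whether the numbers pair samples for part of the genes. Of 437 values of the 17 genes under an alternative 125 lost the call, and 31 of 948 values of other named genes gained it. No value changed sign where the gene was called in the main fit or in that alternative. Sign changes of genes called in neither were not counted, and some occurred. Rrm2 ran from -0.41 to 1.785 and the mitosis gene Birc5 from -1.23 to 0.14. Without replicate 1 of DKO at 5 weeks the calls of the 17 genes other than Ffar4 were lost. Replicate 3 of WT at 5 weeks also decided Clmp, Ppargc1a, Ust, Clip4, Ffar4, Pdk4, Cdh8, Sst and Sorl1. Replicate 2 of WT at 7 months decided Glt1d1, Ppargc1a, Clip4, Ffar4, Cdh8, Sst and Sorl1, and replicate 2 of DKO at 5 weeks decided Glt1d1, Steap4, Clip4, Ffar4, Cdh8 and Sst. Replicate 1 of WT at 5 weeks decided Ppargc1a, Clip4, Cdh8, Sst and Sorl1, replicate 2 of that group Clmp, Ppargc1a, Cdh8, Sst and Sorl1, and replicate 4 of that group Clip4 and Sst. At 7 months, replicate 4 of WT decided Clmp, Clip4, Ffar4, Sst and Sorl1, replicate 1 of WT Clip4 and Sorl1, replicate 3 of DKO Glt1d1, Clip4, Sst and Sorl1, and replicate 1 of DKO Clip4. No call of the 17 was lost without replicate 3 of WT or replicates 2 and 4 of DKO at 7 months. The causes were not tested. In 8 of the 17 genes at least 1 group mean lay below every array median, which limits the sizes given. The same limit holds for genes outside the 17, among them Fbp1, Reg2, Msln, Vip, Cck, Reln, Vnn1, Pdgfra and Tlr4.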

Other observations

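Vip and Msln lay outside the threshold and fell over time in both genotypes. Vip, a neuropeptide gene of nerve fibres, ranged from 5.36 to 5.84 in WT and was 6.27 and 6.04 in DKO islets at 5 weeks, and ranged from 4.03 to 4.97 in WT and 3.36 to 3.80 in DKO islets at 7 months. Its changes over time were -1.13 ± 0.18 in WT and -2.59 ± 0.22 in DKO islets, with an interaction of -1.46 ± 0.28 (limma adjusted p = 0.0648). Msln, a mesothelial surface protein gene, changed by -1.53 ± 0.24 in WT and -3.43 ± 0.30 in DKO islets. The DKO means at 7 months, 3.56 for Vip and 2.87 for Msln, lay below every array median, so the sizes that use them are not exact.

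Acta2 was lower in DKO than in WT islets at 5 weeks (-0.98 ± 0.17, limma adjusted p = 0.014) and did not pass at 7 months (0.22 ± 0.14). Zfp36, an immediate early gene that destabilises cytokine mRNAs, had an interaction of 0.89 ± 0.18 (limma adjusted p = 0.0741).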
